A study of Homo sapiens with 6 samples.

Results

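ATF4, ATF3, DDIT3, CEBPB, CEBPG, JDP2, TRIB3, PPP1R15A, SESN2 and ATF5 encode the transcription factors and feedback proteins around ATF4, the central transcription factor of the integrated stress response. They were examined in 12Z cells after knockdown of LINC01133, a long intergenic non-coding RNA. These 10 genes were chosen by name, with their difference between knockdown and control cells already known. That difference is therefore given as a description. No p-value is printed for it, and where a gene is said to pass a cutoff, this states the outcome of the rule and is not evidence of a change. All 10 were found by symbol among the 60660 genes counted, and all 10 were among the 15155 genes with enough counts to be tested.

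In the integrated stress response, kinases that sense amino acid shortage, unfolded protein in the endoplasmic reticulum, double-stranded RNA or mitochondrial and heme stress phosphorylate the translation factor eIF2. Translation as a whole then slows, while ATF4 is translated more through upstream reading frames in its mRNA, so the level of ATF4 protein is not read from its mRNA alone. ATF4 binds DNA as a dimer with other bZIP proteins, mainly of the C/EBP family. Its targets include amino acid enzymes and transporters, tRNA synthetases and genes that end the response, such as PPP1R15A and TRIB3.

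All libraries come from a single established line, 12Z, an epithelial line that originates from endometriosis. Control cells were transfected with a non-targeting siRNA, and knockdown cells with siRNA LINC01133a at 10 nM. RNA was taken from both 72 h after transfection, with 3 libraries per group that the study describes as biological replicates. No other siRNA was sequenced, so an effect of LINC01133 loss and an effect of this siRNA on other RNAs cannot be told apart in these libraries. The guide strand of siRNA LINC01133a is printed here because matches to its seed (bases 2 to 8, in capitals) are counted further on.
siRNA LINC01133a, guide strand: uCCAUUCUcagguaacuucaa

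Libraries held 27742562 to 37551194 counts on genes. LINC01133 (ENSG00000224259.7), on chromosome 1 from 159958035 to 159984750 of GRCh38, had 813, 818 and 837 normalized counts in control libraries 1 to 3 and 129.7, 131 and 138 in knockdown libraries 1 to 3, or 16.1% of control. Normalized counts are raw counts scaled to a common library size by the TMM method, and log2 fold changes are knockdown against control. A gene was called differentially expressed (DE) at a fold change over 1.5 in either direction, which is 0.585 on the log2 scale, and an adjusted p under 0.05 in the quasi-likelihood test of edgeR over all genes tested. By that rule 803 genes rose and 975 fell after knockdown, a split that was 1030 and 814 with library size alone as the scaling. Markers of other cell types were checked in the same libraries. All 5 leukocyte and all 3 endothelial markers were below 1 CPM (counts scaled by the library total). The 9 epithelial markers summed to 6090 to 6430 CPM in control and 4080 to 4230 CPM in knockdown libraries, and 4 of them were DE and lower. Of the epithelial markers, GRHL2 was at 0 and EPCAM and ESRP1 were below 1 CPM, while KRT8 averaged 3160 CPM in control and 2140 CPM in knockdown libraries. All 8 stromal fibroblast markers were above 1 CPM and summed to 8440 to 8960 CPM in control and 8490 to 8550 CPM in knockdown libraries, and 1 of them, PDGFRA, was DE and lower, from 7.51 to 2.74 CPM. COL3A1 averaged 3790 CPM in control and 4110 CPM in knockdown libraries, and VIM 1600 and 1230 CPM. The part of these markers in the results below was not tested.

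Of the 10 ATF4 axis genes, SESN2, ATF3 and JDP2 rose and CEBPB fell past both cutoffs in knockdown cells. The other 6 had log2 fold changes between 0.16 and 0.58. Beside these 4 of 10, 11.7% of all genes tested were DE, 5.30% higher and 6.43% lower. Without the fold cutoff, 9 of the 10 had an adjusted p under 0.05, against 48.3% of all genes. Of these 9, 8 were higher and 1 lower, against 23.3% and 25.0% of all genes, and DDIT3 did not pass. The 3 knockdown libraries lay above the 3 control libraries for 8 of the 10 and below them for CEBPB, and the groups overlapped for ATF4. Among the 8, the highest control and the lowest knockdown library of DDIT3 both rounded to 187 normalized counts. Of all genes, 57.3% had groups that did not overlap (28.3% higher and 29.0% lower). The median log2 fold change was 0.41 over the 10 and 0.0032 over all genes tested. Since the 10 were chosen with these differences known, nothing is read from these counts. RNA from the whole culture was measured, so fewer cells expressing a gene and less of its RNA per cell cannot be told apart.

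**Figure D1:**
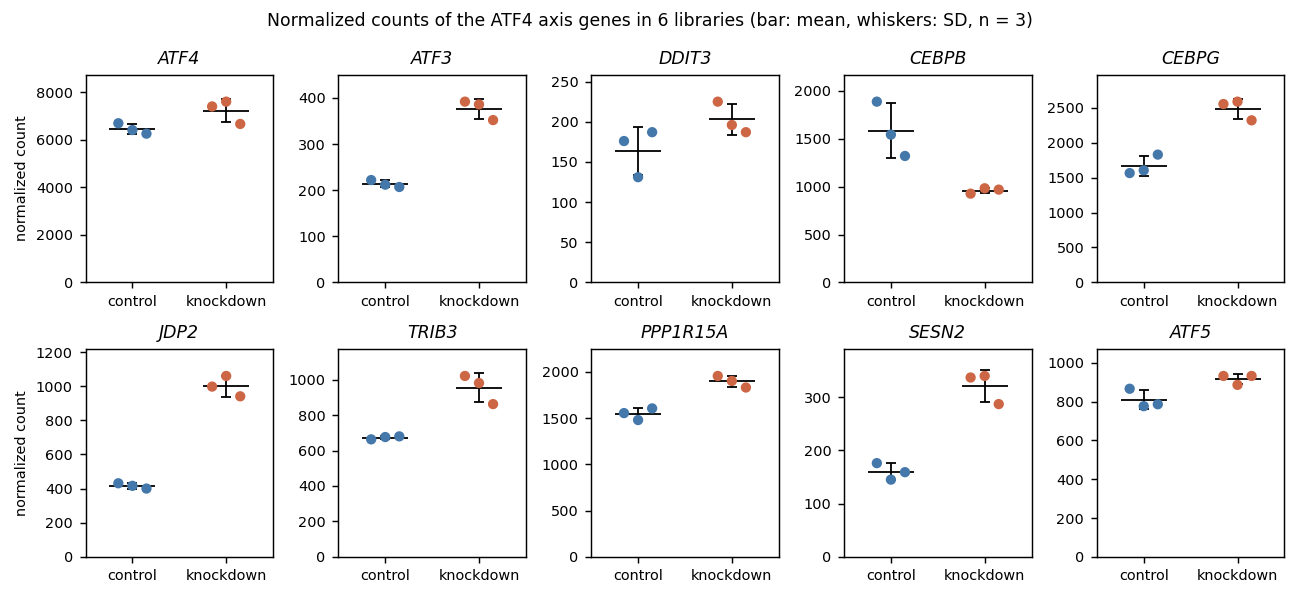
Normalized counts of the 10 ATF4 axis genes in each of the 3 control and 3 knockdown libraries, one panel per gene, with a bar at the mean and whiskers of 1 SD for each group (n = 3). Blue points are control and orange points knockdown libraries. JDP2, SESN2 and ATF3 are well above control in all 3 knockdown libraries, CEBPB is below, and the ATF4 groups overlap.

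ATF4 itself (ENSG00000128272.15, chromosome 22 from 39519695 to 39522683) was the most abundant of the 10. Its normalized counts were 6691, 6405 and 6253 in control libraries 1 to 3 and 7397, 7598 and 6661 in knockdown libraries 1 to 3. Knockdown replicate 3 lay below control replicate 1, so the groups overlapped. The mean was 6449.7 ± 222 (SD, n = 3) in control and 7219 ± 494 (n = 3) after knockdown, so the log2 fold change was 0.16 (SE 0.049), which is 1.12-fold. This was below the fold cutoff. Leaving out single libraries gave 0.13 to 0.22, and in 3 of those fits the adjusted p was no longer under 0.05. Reads were kept only where they mapped to a single place, and the 4 ATF4 pseudogenes in the annotation took few of them, with at most 22 counts in any library (ATF4P3).

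ATF5, a close relative of ATF4 that is likewise controlled by upstream reading frames, is on chromosome 19 from 49928702 to 49933935. It had 867, 777 and 787 normalized counts in control libraries 1 to 3 and 933, 887 and 933 in knockdown libraries 1 to 3. The groups did not overlap, with control replicate 1 close under knockdown replicate 2. The log2 fold change was 0.18 (SE 0.056), below the fold cutoff, and its adjusted p was no longer under 0.05 in 4 of the fits that leave out a library. ATF5 overlaps NUP62 on the other strand by 565 bases, 19.5% of its exon length, and 30% of the stranded counts in the ATF5 gene fell on the strand of NUP62. Counting was done by strand here, and without strand the log2 fold change was 0.156. The adjusted p of ATF5 was not under 0.05 without strand, nor by DESeq2.

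Among the bZIP factors that act beside ATF4, JDP2 had the highest fold change of the 10. JDP2 is a Jun dimerization protein that mostly represses AP-1 and CRE sites, and lies on chromosome 14 from 75427716 to 75474111. It had 431, 416 and 400.0 normalized counts in control libraries 1 to 3 and 998, 1060.4 and 941 in knockdown libraries 1 to 3. Every knockdown library was far above every control library. From 415 ± 15.4 (SD, n = 3) to 999.5 ± 59.9 (n = 3), JDP2 rose by 1.27 on the log2 scale (SE 0.062), or 2.41-fold. The antisense gene JDP2-AS1 held 18 to 46 raw counts per library.

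ATF3, an early stress-induced factor that ATF4 is known to induce and that acts mainly as a repressor, is on chromosome 1 from 212565334 to 212620777. The control libraries had 222, 212 and 207 normalized counts and the knockdown libraries 392, 386 and 352. The groups were tight and well apart. ATF3 rose by 0.82 on the log2 scale (SE 0.082), or 1.76-fold, from 214 ± 7.29 to 376 ± 21.5 (SD, n = 3 each).

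DDIT3, which encodes CHOP, the pro-apoptotic C/EBP family factor downstream of ATF4, is on chromosome 12 from 57516588 to 57521737. Its normalized counts were 176, 131 and 187 in control libraries 1 to 3 and 225, 196 and 187 in knockdown libraries 1 to 3. The highest control and the lowest knockdown library came out at the same rounded value. The mean was 164 ± 29.7 in control and 203 ± 19.5 after knockdown (SD, n = 3 each), or 0.30 on the log2 scale (SE 0.13), and DDIT3 was the only one of the 10 whose adjusted p was not under 0.05. Its log2 fold change moved between 0.17 and 0.40 when single libraries were left out. DDIT3 shares 355 bases of exon, 27.2% of its length, with MARS1 on the other strand, and 44.6% of the stranded counts in the DDIT3 gene fell on the other strand. It also shares 58 bases (4.44%) with MBD6 on the other strand and 105 bases (8.03%) with a protein-coding gene on the same strand. The part of the same-strand overlap in the counts of DDIT3 was not tested. MARS1 itself had a log2 fold change of 0.54, and the unstranded column gave 0.193 for DDIT3.

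CEBPG, a C/EBP factor without a transactivation domain of its own that pairs with ATF4, is on chromosome 19 from 33373685 to 33382686. It had 1564, 1603 and 1828 normalized counts in control libraries 1 to 3 and 2551, 2585 and 2318 in knockdown libraries 1 to 3. All knockdown libraries were higher than all control libraries. The log2 fold change was 0.58 (0.579 to 3 decimals, SE 0.06), or 1.49-fold, just inside the cutoff of 0.585, so CEBPG was not called DE. It was called with library size alone as the scaling, without control replicate 3 and without knockdown replicate 3.

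CEBPB was the one gene of the 10 that fell. It encodes C/EBP beta, a regulator of differentiation, inflammation and decidualisation and a dimer partner of ATF4, and is on chromosome 20 from 50190830 to 50192668. In control libraries 1 to 3 it had 1887, 1543 and 1320.2 normalized counts, and in knockdown libraries 1 to 3 927, 983 and 969. The control libraries spread widely, with a coefficient of variation of 18.0%, against 3.05% in knockdown. Even so, the lowest control library was above the highest knockdown library. CEBPB fell by 0.73 on the log2 scale (SE 0.097), to 60.4% of control. When control replicate 1 was left out, it came to -0.58 and CEBPB was no longer called DE.

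CEBPB has an antisense gene, CEBPB-AS1, that overlaps 12.6% of its exon length. CEBPB-AS1 held 10, 5 and 8 raw counts in control libraries 1 to 3 and 22, 22 and 20 in knockdown libraries 1 to 3. It rose by 1.38 on the log2 scale (adjusted p = 0.002, edgeR quasi-likelihood test), on few counts.

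The feedback genes comprised SESN2, TRIB3 and PPP1R15A. SESN2, a sestrin that restrains mTORC1 when leucine is low, is on chromosome 1 from 28259518 to 28282491. It had 176, 145 and 159 normalized counts in control libraries 1 to 3 and 337, 339.9 and 287 in knockdown libraries 1 to 3. It rose by 1.00 on the log2 scale (SE 0.1), or 2.01-fold, from 160.0 ± 15.4 to 321 ± 29.6 (SD, n = 3 each). All knockdown libraries were above all control libraries, and knockdown replicate 3 was the lowest of them.

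TRIB3, a pseudokinase that binds ATF4 and dampens it, is on chromosome 20 from 362835 to 397559. It had 663, 676 and 679.8 normalized counts in control and 1021, 981 and 862 in knockdown libraries 1 to 3. The control libraries were tight, with a coefficient of variation of 1.34%, and all knockdown libraries were higher. The log2 fold change was 0.51 (SE 0.064), or 1.42-fold, which is under the fold cutoff.

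PPP1R15A, which encodes GADD34, the stress-induced subunit that directs protein phosphatase 1 to eIF2, is on chromosome 19 from 48872212 to 48876059. It had 1554, 1479 and 1605 normalized counts in control libraries 1 to 3 and 1956, 1902 and 1831 in knockdown libraries 1 to 3. The groups were apart, at a log2 fold change of 0.30 (SE 0.045), or 1.23-fold, below the fold cutoff.

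**Figure D2:**
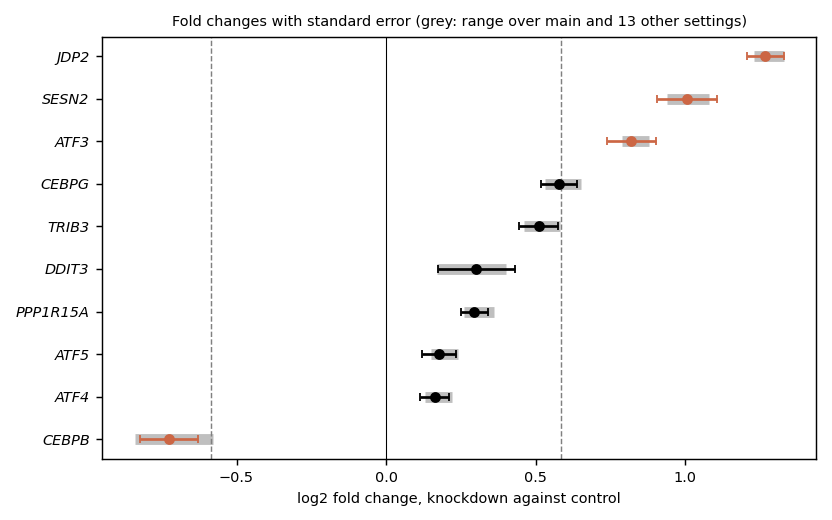
Log2 fold change (knockdown against control) with its standard error for each of the 10 ATF4 axis genes, with dashed lines at the fold cutoff of 0.585 in either direction. Orange points are DE genes, and grey bars give the range over the reported fit and 13 other settings. JDP2, SESN2 and ATF3 lie above the upper cutoff, CEBPB below the lower one, and CEBPG just inside it.

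To compare levels between genes, counts were divided by exon length and are given as RPKM (counts scaled by kilobase of exon and by library size). In control cells ATF4 was at 76.3 ± 2.63 RPKM (SD, n = 3), above 97.3% of the genes tested. CEBPB followed at 26.6 ± 4.79, PPP1R15A at 13.9 ± 0.571, CEBPG at 12.7 ± 1.09 and ATF5 at 8.66 ± 0.528 RPKM. TRIB3 was at 6.32 ± 0.0844, DDIT3 at 3.89 ± 0.702, JDP2 at 2.05 ± 0.0758, ATF3 at 1.65 ± 0.0563 and SESN2 at 1.43 ± 0.138 RPKM. Of the neighbours in this order only PPP1R15A and CEBPG had control libraries that overlapped, and all the others were apart. In knockdown cells the order changed: CEBPG stood 2nd at 18.9 ± 1.11, PPP1R15A 3rd at 17.1 ± 0.566 and CEBPB 4th at 16.1 ± 0.492 RPKM. JDP2, at 4.93 ± 0.296 RPKM, stood next to DDIT3 at 4.79 ± 0.462 RPKM.

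**Figure D3:**
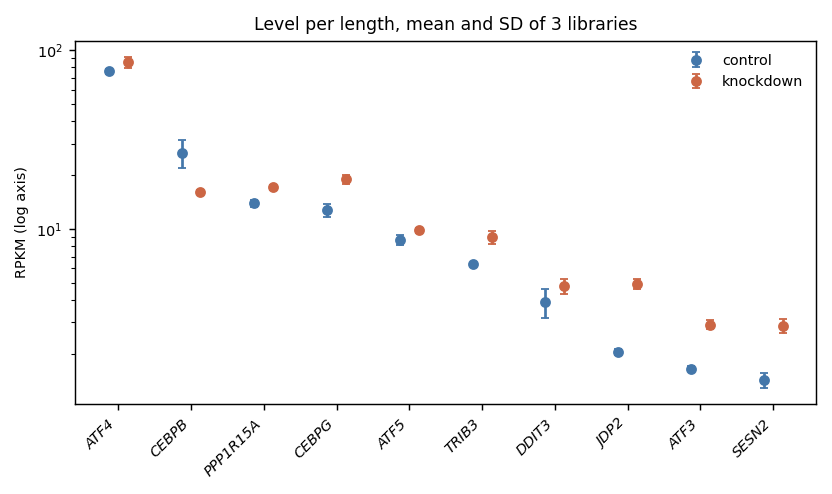
Level per length (RPKM, log axis) of the 10 ATF4 axis genes, as the mean and SD of the 3 control (blue) and the 3 knockdown (orange) libraries, ordered by the control mean. ATF4 is highest in both groups, and CEBPB drops from the second place in control to the fourth in knockdown.

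Promoters were searched for elements that ATF4 and other bZIP dimers are known to bind. Promoters of RefSeq (GRCh38.p14), from 250 bases before to 50 after each start listed for a gene, were matched for all 10 genes. They were searched on both strands. The 10 had 1 to 3 promoters each (2 for ATF3 and CEBPG, 3 for JDP2), and a gene counted if any promoter held the element. The number of promoters per gene was not matched between the 10 and all genes. Distances below are from the start whose promoter held the match. The C/EBP-ATF composite element, searched as TGATGNAA, lay in a promoter of 3 of the 10 (30%), against 1217 of 27305 genes (4.46%). The cyclic AMP response element TGACGTCA, which CREB and ATF dimers bind, lay in that of 1 of the 10, PPP1R15A, against 2.25% of all genes. The matches are shown with the element in capitals, since JDP2 and ATF3 are among the genes that rose and CEBPG is the one just inside the cutoff.
ATF3, chr1:212565205-212565234, plus strand, composite element 191 bases before the start: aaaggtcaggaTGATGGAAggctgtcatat
CEBPG, chr19:33374060-33374089, plus strand, 42 bases before the start: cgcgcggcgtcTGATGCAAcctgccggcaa
JDP2, chr14:75427995-75428024, plus strand, 16 bases before the start: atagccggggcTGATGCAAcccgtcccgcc
PPP1R15A, chr19:48872352-48872381, plus strand, response element 58 bases before the start: gcctctcttcgTGACGTCAgcacgccgggc
The promoters of ATF4, DDIT3, CEBPB, TRIB3, SESN2 and ATF5 held neither. A match describes the letters in this window and does not show that a factor binds there.

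Upstream ATGs are the feature of ATF4 mRNA that lets it be translated under stress. In the canonical transcripts of GENCODE v44, 7 of the 10 genes had at least 1 ATG in the 5′ UTR (70%), against 41.2% of 12525 tested genes with such a UTR. ATF4 and DDIT3 each had 3 and ATF5 2, and each of these 3 genes had 1 reading frame that runs past the main start codon, which 13.6% of the tested genes had. PPP1R15A and TRIB3 had 2 upstream ATGs and CEBPG and SESN2 had 1. ATF3, CEBPB and JDP2, all of which were DE, had none. The median 5′ UTR was 268 bases over the 10 genes and 141 bases over all.

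Matches to the guide seed of siRNA LINC01133a in the 3′ UTR were counted because only this siRNA was sequenced. The 7-base match AGAATGG was in 2 of the 10 genes (20%), CEBPB and JDP2, against 17.1% of 12533 tested genes with a 3′ UTR. Both are shown with the match in capitals.
CEBPB, at base 588 of a 3′ UTR of 597 bases: acttttttttgAGAATGGtta
JDP2, at base 2128 of a 3′ UTR of 4632 bases: ggcagaagtggAGAATGGtgattaacaca
Of these 2 genes, CEBPB was lower and JDP2 higher in knockdown cells. No 3′ UTR of the 10 held the 8-base match, which 5.78% of tested genes held. The match to the seed of the passenger strand was in CEBPG (10%), against 13.6% of tested genes. The part of these matches in the fold changes was not tested.

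Upstream of ATF4 were 20 genes for eIF2, its exchange factor, its kinases and their regulators, and catalytic subunits of protein phosphatase 1. None of the 20 was DE by edgeR or by DESeq2, while 14 (70%) had an unadjusted p under 0.05, against 55% of all genes tested. By the adjusted p alone 4 were higher and 7 lower, where 23.3% and 25.0% of all genes were. Over the 20 the median log2 fold change was -0.06. The kinase PERK (EIF2AK3) was higher by 0.19 (SE 0.046, adjusted p = 0.004), PKR (EIF2AK2) lower, at -0.26 (SE 0.038, adjusted p = 9e-05), and HRI (EIF2AK1) at -0.12 (SE 0.034, adjusted p = 0.0099), though with library size alone HRI had an adjusted p of 0.17 and without knockdown replicate 1 one of 0.059. GCN2 (EIF2AK4), which senses uncharged tRNA, had -0.05 (SE 0.04, adjusted p = 0.3). DELE1, which carries mitochondrial stress to HRI, was higher by 0.41 (SE 0.051, adjusted p = 2.2e-05), from 1276 ± 85.0 normalized counts in control to 1698 in knockdown. EIF2B5, a subunit of the exchange factor that eIF2 phosphorylation blocks, was higher by 0.43 (SE 0.047, adjusted p = 7.2e-06). PPP1CB, a catalytic subunit of protein phosphatase 1, was lower, at -0.32 (adjusted p = 1.6e-05), and so was PPP1CC, at -0.14 (adjusted p = 0.005), though not with library size alone (adjusted p = 0.071). IMPACT, an inhibitor of GCN2 activation, was higher by 0.24 (SE 0.049, adjusted p = 0.0012), and EIF2B3 lower, at -0.25 (SE 0.057, adjusted p = 0.0027). GCN1, which activates GCN2, had -0.16 (adjusted p = 0.038) and EIF2B1 had -0.13 (adjusted p = 0.034). For both the adjusted p was above 0.05 with library size alone (0.17 for GCN1, 0.26 for EIF2B1). It was also above 0.05 for GCN1 without control replicate 2 (0.11) and without knockdown replicate 1 (0.1), 2 (0.12) or 3 (0.076). For EIF2B1 it was above 0.05 without control replicate 1 (0.13) or 3 (0.11) and without knockdown replicate 1 (0.11), 2 (0.075) or 3 (0.098). Besides GCN2, the genes that did not pass the adjusted p were OMA1, DNAJC3, EIF2S1, EIF2S2, EIF2S3, EIF2B2, EIF2B4 and PPP1CA. All p-values here and in what follows come from edgeR (quasi-likelihood), adjusted by Benjamini-Hochberg across the 15155 genes. This list and those that follow were chosen with earlier results of these data known. Their counts, shares and medians are therefore given as a description, and a gene that passes a cutoff states the outcome of the rule.

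Among the relatives of the feedback genes 1 of 4 tested was DE and lower (25.0%), where 6.43% of all genes were. SESN1, another sestrin, fell by 0.87 on the log2 scale (SE 0.093, adjusted p = 5.7e-06). SESN1 had 456, 493 and 509 normalized counts in control libraries 1 to 3 and 250.1, 243 and 309.7 in knockdown libraries 1 to 3. It was thus lower in knockdown cells while SESN2 was higher. SESN3 had at most 8 counts in a library and was not tested. TRIB2 was lower, at -0.47 (SE 0.092, adjusted p = 0.00091), though not past the fold cutoff, and TRIB1 did not pass the adjusted p. PPP1R15B, the constitutive counterpart of PPP1R15A, had 0.10 (SE 0.037, adjusted p = 0.038), which was no longer under 0.05 in 4 of the fits that leave out a library.

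Of the other bZIP factors, 32 of 36 were tested and 5 were DE (15.6%, against 11.7% of all genes), 3 higher and 2 lower, with a median log2 fold change of 0.03. CREB5 rose by 1.40 (SE 0.09, adjusted p = 5.6e-08), from 263 ± 23.8 to 689 ± 69.5 normalized counts. ATF6B, the less active relative of the endoplasmic reticulum stress sensor ATF6, rose by 0.70 (SE 0.054, adjusted p = 3.3e-07), and MAFK, a small Maf protein, by 0.69 (SE 0.074, adjusted p = 5.8e-06). ATF1, a CREB family factor, fell to 25.7% of control, with 1647, 1672 and 1628 normalized counts in control and 394, 449.6 and 429 in knockdown libraries 1 to 3, a log2 fold change of -1.96 (SE 0.055, adjusted p = 4.6e-11). The 3′ UTR of ATF1 holds 2 matches of 8 bases to the guide seed. In the lists here, EIF2AK2 (log2 fold change -0.26), SLC38A2 (-0.26), KLHL24 (-0.10), SLC7A11 (0.19) and CREBRF (0.25) also held an 8-base match. The part of the matches in these fold changes was not tested. HLF, a PAR-domain factor at 25.9 to 47.3 normalized counts in control, fell by 1.21 (SE 0.27, adjusted p = 0.0024).

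The amino acid enzymes and transporters that ATF4 is known to induce had 8 of 21 genes DE, all of them higher (38.1%, against 5.30% of all genes tested that were DE and higher). Since this list too was chosen with earlier results known, nothing is read from the difference in share. By the adjusted p alone 17 were higher and 2 lower, where 23.3% and 25.0% of all genes were. The median log2 fold change over the 21 was 0.38. The 2 that were lower, named after their values were seen, were CTH, at -0.53 (SE 0.085, adjusted p = 0.00018), and SLC38A2, at -0.26 (SE 0.069, adjusted p = 0.0071). CBS, which makes cystathionine from homocysteine and serine, rose by 1.38 (SE 0.1, adjusted p = 2.1e-07), from 99.4 ± 8.91 to 259 ± 3.72 normalized counts. ALDH1L2, of mitochondrial folate metabolism, rose by 1.06 (SE 0.11, adjusted p = 4.2e-06). MTHFD2, the mitochondrial methylene-tetrahydrofolate dehydrogenase, rose by 0.90 (SE 0.053, adjusted p = 2.9e-08), from 3938 ± 43.4 to 7341 ± 633, PCK2 by 0.87 (SE 0.068, adjusted p = 3.4e-07) and the serine synthesis enzyme PSAT1 by 0.83 (SE 0.047, adjusted p = 1.8e-08). ASNS, the asparagine synthetase that is a standard ATF4 target, went from 5.00 ± 2.66 to 22.3 ± 0.903 normalized counts, a log2 fold change of 2.09 (SE 0.35, adjusted p = 0.00029). This value is uncertain, because the control libraries held only 2 to 8 raw counts of it and 49.3% of its exon bases are shared with a gene on the same strand, and reads that fit both are left uncounted. ASNS was no longer tested with at least 10 counts required in every library.

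None of the 12 tRNA synthetases was DE by edgeR or DESeq2, with 8 (66.7%) at an unadjusted p under 0.05, against 55% of all genes. By the adjusted p alone 7 were higher and none lower, where 23.3% and 25.0% of all genes were. The median log2 fold change over the 12 was 0.14. MARS1, which charges methionine, had the largest, 0.54 (SE 0.05, adjusted p = 1.5e-06), which passed the fold cutoff without knockdown replicate 3 (0.605), from 3997 ± 118 to 5823 ± 419 normalized counts, and IARS1 the smallest, -0.06 (SE 0.036, adjusted p = 0.23). The composite element lay in a promoter of 7 of the 10 synthetases with a promoter in the table (70%), the highest share of the lists.

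Of the other known ATF4 targets in stressed cells, 4 of 16 tested were DE and higher (25.0%, against 5.30% of all genes), at a median log2 fold change of 0.28. By the adjusted p alone 8 were higher and 3 lower, where 23.3% and 25.0% of all genes were. The 3 that were lower, named after their values were seen, were DDIT4, an inhibitor of mTORC1, at -0.55 (SE 0.084, adjusted p = 0.00012), HERPUD1, of endoplasmic reticulum protein degradation, at -0.34 (SE 0.042, adjusted p = 2.2e-05), and the lipoprotein receptor VLDLR, at -0.17 (SE 0.041, adjusted p = 0.0036). DDIT4 was DE and lower in the unstranded column (-0.64), and when control replicate 3 (-0.59), knockdown replicate 1 (-0.62) or knockdown replicate 2 (-0.59) was left out. CHAC1, which breaks down glutathione, rose by 2.25 (SE 0.26, adjusted p = 1.3e-05), with 28.4, 27.0 and 22.8 normalized counts in control and 125, 166 and 79.4 in knockdown libraries 1 to 3. ADM2, which encodes the peptide intermedin, rose by 1.60 (SE 0.13, adjusted p = 4.2e-07), from 95.0 ± 4.65 to 288 ± 45.1. BBC3, the pro-apoptotic BH3 protein PUMA that p53 also controls, rose by 0.82 (SE 0.17, adjusted p = 0.0014). NUPR1 had 0.65 (SE 0.25, adjusted p = 0.043), but its groups overlapped. It was not DE by edgeR when control replicate 2 (adjusted p = 0.079) or 3 (adjusted p = 0.16) was left out, or when knockdown replicate 1 (adjusted p = 0.13) or 3 (adjusted p = 0.1) was. DESeq2 gave an adjusted p of 0.13 for it, and in the unstranded column it was not DE either.

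The branch of the unfolded protein response that ATF6 and XBP1 control had 1 of 15 genes DE and higher (6.67%, against 5.30% of all genes), and its median log2 fold change was -0.04. By the adjusted p alone 5 were higher and 4 lower, where 23.3% and 25.0% of all genes were. DNAJB9, an endoplasmic reticulum co-chaperone, rose by 0.82 (SE 0.064, adjusted p = 3.1e-07), from 417 ± 7.86 to 740.2 ± 43.3 normalized counts. CALR, the lowest of the list, was at 38188 ± 411 in control and 30682 ± 484 in knockdown cells, at -0.32 (SE 0.033, adjusted p = 4.5e-06), below the fold cutoff.

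**Figure D4:**
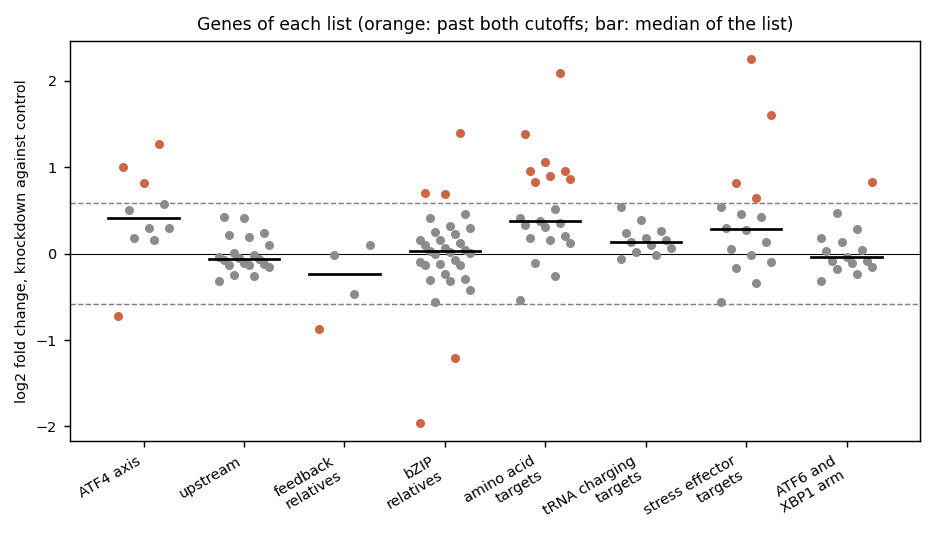
Log2 fold change (knockdown against control) of each tested gene in the 10 ATF4 axis genes and in the lists around them, with a bar at the median of each list and dashed lines at the fold cutoffs. Orange points are DE genes. The amino acid targets, with 8 of 21 DE, lie mostly above 0, and the upstream genes and the ATF6 and XBP1 arm lie around it.

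The 3 knockdown libraries were not equal. Knockdown replicate 3 had the fewest counts on genes, 27742562, and its part in what follows was not tested. Knockdown replicate 3 was the lowest of the knockdown libraries for 8 of the 10 ATF4 axis genes, for 19 of 21 amino acid targets and for all 12 tRNA synthetases, against 37.2% of all genes tested. It was also the lowest for 12 of 15 genes of the ATF6 and XBP1 arm and for 10 of 20 upstream genes. Relative to the control mean, the median over the 10 genes was 0.53, 0.42 and 0.30 on the log2 scale in knockdown libraries 1 to 3 and between -0.05 and 0.05 in the control libraries. The amino acid targets had 0.42, 0.44 and 0.29. For the 10 genes and the amino acid targets, knockdown replicate 3 thus stood between the control libraries and the other knockdown libraries. For the upstream genes (-0.07) and the ATF6 and XBP1 arm (-0.09) its median was below those of all the other libraries.

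**Figure D5:**
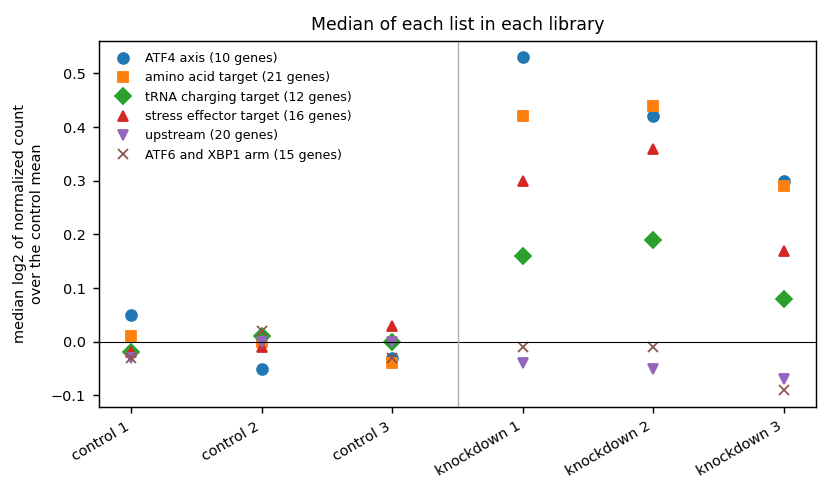
Median log2 difference from the control mean of the 10 ATF4 axis genes and of 5 of the lists, in each of the 6 libraries. In knockdown replicate 3 the medians of the ATF4 axis genes and of the amino acid targets are lower than in the other knockdown libraries and above all control libraries.

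Over the 6 libraries the genes whose pattern was most like that of ATF4, of 4017 genes with sufficient level and shift, were PVR, CTSZ, FOXP4, CLTB and P3H1, with a root mean square difference of 0.017 to 0.031 on the log2 scale and log2 fold changes of 0.14 to 0.19.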

How the data were processed

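Counts were deposited by the authors as 1 STAR table per library, from polyadenylated RNA aligned to GRCh38.p13, with genes from GENCODE v36. Reads were counted only where they mapped to a single place. The values are raw read counts per gene, without normalization, and the tools named in the submitters' processing notes were STAR 2.7.6a and SAMtools 1.10. Columns for either strand and without strand are given. Counts on the strand opposite to read 1 were taken, since that column held at least 93.9% of the stranded counts in each library. The paper names a TruSeq kit and the labels a NEB kit. Depth is the range in the report.

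Counts were filtered with filterByExpr (minimum count of 10), scaled by TMM and compared in edgeR 4.0.16 under R 4.3.3 (quasi-likelihood), fitting condition alone to all 6 libraries. P-values were adjusted by Benjamini-Hochberg over 15155 genes. The standard error is the log2 fold change divided by the root of the F statistic. The steps were tested on simulated data. The members and the gene lists were chosen with earlier results of these data known. The DE cutoffs are those of the study. All 10 members were named, and any gene of the upstream and feedback lists could be named. From each other list the 3 highest and 3 lowest DE genes were named, or the extremes where fewer than 2 were DE, with the 5 genes most like ATF4 and the antisense genes and pseudogenes of the members. The lower amino acid and stress targets were named besides, after their values were seen. Levels per length used merged exons of GENCODE v44 (lengths for 99.8% of the genes tested). Gene positions and exon overlaps are also from GENCODE v44, while the identifiers printed with them are those of the counts. Promoters were from RefSeq and the siRNA from the study's list of oligonucleotides. Alternatives were DESeq2 1.42.0, median-of-ratios factors, library size alone, no filter, the unstranded column, a minimum of 10 counts in all libraries, a replicate block, other cutoffs and each library left out. The p-values measure the spread between 3 libraries per group.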

Additional observations from a re-analysis of the deposited data

How the results depend on the processing

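No alternative reversed the direction of any of the 10 genes. With library size alone EIF2AK4 (0.009) and IARS1 (0.007) turned from lower to higher, with adjusted p of 0.85 and 0.88. JDP2, SESN2 and ATF3 stayed DE under each of these alternatives and with glmTreat. The number of the 10 that were DE was 3 to 5 with each library left out in turn, 5 with library size alone and 3 with glmTreat, a test against the fold of 1.5, where CEBPB was lost. By the adjusted p alone the counts were 7315 of all 15155 genes (48.3%, and 578 with glmTreat) and 9 of the 10 members. In the lists they were 11 of 20 upstream genes, 3 of 4 feedback relatives, 18 of 32 bZIP relatives and 19 of 21 amino acid targets. They were also 7 of 12 tRNA synthetases, 11 of 16 stress targets and 9 of 15 genes of the ATF6 and XBP1 arm. With glmTreat 2 bZIP relatives and 2 stress targets were left. Of the tRNA synthetases 1 was DE with library size alone, and 0 to 1 with each library left out, the 1 being without knockdown replicate 3. Library size alone moved the median of all genes by 0.062 on the log2 scale and the share of DE genes that were higher from 45.2% to 55.9%. The number of stress targets was 3 to 5 over the alternatives to the scaling, filter, tool and libraries. Same-numbered libraries had correlations of their deviations between -0.015 and 0.057, and differently numbered ones between -0.0664 and 0.0714. These values cannot show whether same-numbered libraries were prepared together. With the replicate block 1747 genes and 4 members were DE, and the block changed none of the calls of the 10. With longest transcripts in place of merged exons 8 of 10 ranks of level were kept. The standard error of DDIT3, 0.13 on the log2 scale, was the largest of the 10.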
